A study of Homo sapiens with 7 samples.

Results

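The comparison described here set the nascent transcription profile of cells 24 h after ultraviolet C (UVC) light against that of untreated cells, and asked which parts of the profile had returned to the untreated shape and which still differed. It rests on 2 of the 7 libraries of the series, those titled UV-24h and Untreated. The cells were MRC5VA, an immortalised line of human lung fibroblasts. The untreated library carried the time label 0 h and had no irradiation, and the other library came from cells that received 15 J per square metre of UVC and were incubated for 24 h. Both are GRO-seq libraries (global run-on sequencing), for which polymerases in isolated nuclei extend their transcripts for 5 minutes with a brominated nucleotide and the labelled RNA is captured and sequenced. The labels give 1 library per condition and no separate cultures, so no test between conditions was possible, and the intervals below cover counting error only. The other 5 libraries (2, 5, 8, 10 and 12 h after UVC) are given beside these only for scale.

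UVC light joins neighbouring pyrimidines in DNA. An RNA polymerase II that meets such a lesion on the transcribed strand stalls, and transcription-coupled nucleotide excision repair removes the lesion. The farther a position lies from the start of its gene, the more lesions a polymerase may have met on the way, so the distribution of polymerases along genes is a common readout of damage and of recovery. Many human promoters also fire in both directions, which in run-on profiles gives a peak just inside the gene and a shoulder upstream of it.

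Each deposited profile is an average over genes, with a signal value at every base from -2 kb to 120 kb around position 0, taken here as the transcription start. No gene is named in such a profile, so the cell line could not be checked against marker genes. The values were whole multiples of a step in each library, which gave 15379733 reads over the untreated profile and 20603268 reads over the 24 h profile, each read extended to 250 bases. The other 5 libraries had between 12003046 and 25795647 reads. Signal was compared as deposited and as relative signal, which is the signal divided by the same library's mean from 0 to 100 kb. That mean was 3.35 in untreated cells and 3.40 at 24 h, so every deposited ratio was 1.02 times the scaled one. Around the start the profile was cut into 120 bins of 50 bp (-2 to 4 kb), and farther in into 116 bins of 1 kb (4 to 120 kb). A bin was counted as back at the untreated shape when its relative signal lay within 5% of the untreated value, and as still apart otherwise.

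At 24 h the gene body was back at the untreated shape by this measure and most of the region around the start was not. Of the 1-kb bins, 114 of 116 lay within 5%, none was more than 5% higher, and 2 were more than 5% lower (1.72% of the bins compared). Of the 50-bp bins, 24 of 120 lay within 5%, 96 were more than 5% higher (80.0% of the bins compared) and none was more than 5% lower. The median size of the difference was 8.78% in the 50-bp bins and 3.09% in the 1-kb bins. This division rests on the 5% line, and with a line at 3% 59 of the 1-kb bins were apart. Between the 10 and 12 h libraries the medians were 7.85% in the 50-bp bins and 0.903% in the 1-kb bins. Beside that pair, the difference at 24 h was of similar size around the start and larger in the gene body. As deposited, 109 of the 50-bp bins (90.8%) and 15 of the 1-kb bins (12.9%) were more than 5% higher, and none of either kind was more than 5% lower. The counts therefore turn from lower to higher in the 1-kb bins with the scale used, while in the 50-bp bins all calls were higher on both scales. A scale fixed on the kilobase from -2 to -1 kb, where the 24 h signal was 15.9% higher, would turn the direction from -1 to 30 kb, with ratios between 0.887 and 0.947, and so the directions given below hold relative to the downstream signal as a whole. Counting standard errors of the scaled ratios lay between 0.420% and 0.949% in the 50-bp bins and between 0.321% and 0.414% in the 1-kb bins. The interval of the ratio reached across a 5% line in 31 of the 50-bp bins and 13 of the 1-kb bins, so the bounds of the stretches given below are approximate.

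Being within 5% is not the same as showing no difference. Among the 114 1-kb bins within 5%, 108 had a 95% counting interval that left out a ratio of 1, and so did 16 of the 24 50-bp bins within 5%. The 8 50-bp bins whose interval held 1 all lay between -350 and 100 bp. The 6 such 1-kb bins all lay between 32 and 42 kb. Taken singly, these bins could thus not be told apart at this depth. Over wider spans the interval left out a ratio of 1. The difference was 0.993% from -400 to 200 bp (0.380% to 1.61%) and -0.372% from 30 to 40 kb (-0.596% to -0.149%).

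**Figure D1:**
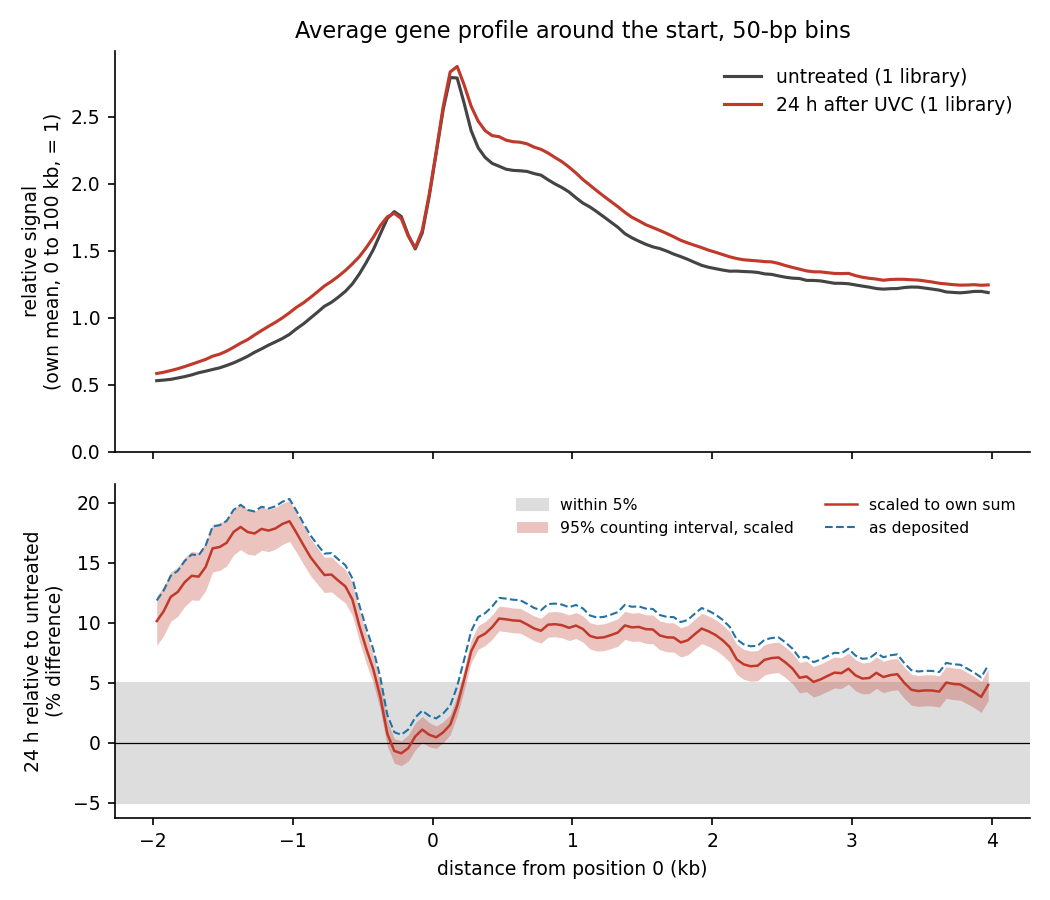
Relative signal (top, own mean from 0 to 100 kb = 1) and percent difference of 24 h from untreated (bottom) against distance from position 0 in kb, in 50-bp bins, with 1 library per condition; the band is the 95% counting interval of the scaled values and the grey area marks 5%. The 2 curves coincide from about -350 to 100 bp, and the 24 h curve lies above the untreated curve on both sides, by up to 18.5% upstream and 10.3% downstream.

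The start itself was back at the untreated shape. The bins from -400 to 200 bp formed a stretch of 12 bins within 5%, with a relative signal of 2.00 in untreated cells and 2.02 at 24 h, a difference of 0.993% (95% counting interval 0.380% to 1.61%). The bounds of this stretch and of the others below come from the same 24 h bin calls. The mean of this stretch was therefore bound to lie within 5%, and that of a stretch of higher bins to exceed 5%. The upstream shoulder had its top in the bin from -300 to -250 bp in both libraries, with a relative signal of 1.79 in untreated cells and 1.78 at 24 h. The dip between shoulder and peak was in the bin from -150 to -100 bp in both, with 1.51 and 1.52. The start peak, where polymerases pause after initiation, reached 2.80 in untreated cells in the bin from 100 to 150 bp and 2.88 at 24 h in the bin from 150 to 200 bp. In untreated cells those bins had deposited signals of 9.35 (9.29 to 9.41) and 9.34 (9.28 to 9.40), which could not be told apart. At 24 h they had 9.64 (9.59 to 9.69) and 9.78 (9.72 to 9.83), so the higher bin was the one farther in. With reads extended to 250 bases, neighbouring 50-bp bins share most of their reads, and a shift of this size is finer than the read length.

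The same stretch had not been close to the untreated level in the earlier libraries, apart from the one at 8 h. Its bounds were drawn from the 24 h values, which favours closeness in that library over the others. From -400 to 200 bp the difference from untreated was -23.0% (2 h), -21.5% (5 h), -2.57% (8 h), -20.2% (10 h) and -35.2% (12 h). All 6 UV libraries are set against the same untreated library here. The order was not that of time, with 8 h between lower libraries on either side.

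Downstream of the peak the 24 h signal was higher than untreated. The bins from 200 to 3350 bp formed a stretch of 63 bins more than 5% higher, with a relative signal of 1.60 in untreated cells and 1.73 at 24 h, a difference of 8.20% (7.86% to 8.54%). The highest of them was the bin from 450 to 500 bp, with a relative signal of 2.13 in untreated cells and 2.35 at 24 h (10.3%, 9.33% to 11.4%). Over the same stretch the difference had been 43.9% (2 h), 16.5% (5 h), 19.4% (8 h), 14.3% (10 h) and 6.23% (12 h). At 12 h its bins lay on both sides of untreated, with ratios from 0.662 to 1.27. The lowest bin of the whole stretch from 0 to 4 kb was the one at position 0 (0.448%, -0.478% to 1.38%), so the excess began past the start, not at it. From 350 to 700 bp the untreated profile has a flat step behind the peak. The peak stood 1.31 times as high as this step in untreated cells and 1.23 times at 24 h. In the earlier libraries it was 1.095 (2 h), 1.15 (5 h), 1.21 (8 h), 1.09 (10 h) and 1.04 (12 h), and these ratios within a library do not depend on its scale. At 12 h the bin taken as the peak (150 to 200 bp) was not the highest of the first kilobase, which was that from 900 to 950 bp. The ratio of the peak to the body from 10 to 30 kb was 2.62 in untreated cells and 2.63 at 24 h. The peak was thus back in proportion to the body from 10 to 30 kb, while the step behind it was raised. That part of the body was itself 2.86% higher at 24 h. The difference was -0.967% from 30 to 60 kb and -3.04% from 60 to 100 kb, so the proportion depends on the part chosen. The summits are also different bins. At 24 h the bin from 100 to 150 bp was 1.49% higher and that from 150 to 200 bp 3.08% higher (2.24% to 3.94%).

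The excess then shrank with distance. It was 9.85% from 0.5 to 1 kb (9.15% to 10.5%), 7.07% from 1 to 4 kb (6.70% to 7.44%) and 3.99% from 4 to 10 kb (3.70% to 4.28%). The bins from 3350 to 3650 bp were within 5% (4.44% as a stretch), the bin from 3650 to 3700 bp lay at the threshold, and the bins from 3700 to 4000 bp were within 5% again (4.52%). No step in the profile marks this bound. The bins from 2600 to 3350 bp were already near the 5% line, between 5.07% and 6.17%. From 4 to 20 kb the 1-kb bins lay between 3.30% and 4.54%.

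Upstream of the shoulder the difference in percent reached higher values than downstream of the start, on a lower untreated signal. The bins from -2000 to -400 bp formed a stretch of 32 bins more than 5% higher, with a relative signal of 0.851 in untreated cells and 0.971 at 24 h, a difference of 14.1% (13.4% to 14.8%). The highest bin was that from -1050 to -1000 bp, with 0.876 in untreated cells and 1.04 at 24 h (18.5%, 16.8% to 20.2%). Toward the far edge the difference declined again. Toward the start it fell from 11.9% (-600 to -550 bp) to 3.81% (-400 to -350 bp, 2.70% to 4.94%) and 0.748% (-350 to -300 bp, -0.301% to 1.81%). The lowest upstream bin was that from -250 to -200 bp (-0.887%, -1.92% to 0.155%). The shoulder stood 2.70 times as high as the kilobase from -2 to -1 kb in untreated cells and 2.32 times at 24 h, and between 1.59 and 1.98 times in the earlier libraries. In the same stretch the difference from untreated had been -15.3% (2 h), 3.09% (5 h), 21.4% (8 h), 11.1% (10 h) and -3.58% (12 h). The 24 h value thus lies inside the range of the earlier libraries. In those at 2, 5, 10 and 12 h the bins of this stretch lay on both sides of untreated, so that their means combine higher and lower bins. At 24 h all 32 bins lay above it, which the bounds of the stretch required. At 8 h all of them lay above it too (lowest bin ratio 1.04). From -2 to -1 kb alone the difference was 15.9% at 24 h, against -4.38% (2 h), 17.3% (5 h), 31.1% (8 h), 21.0% (10 h) and 8.87% (12 h). The strand handling and the genes averaged are not stated in the sources used here, so transcripts of the sense strand, of the opposite strand and of neighbouring genes cannot be told apart in this flank.

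**Figure D2:**
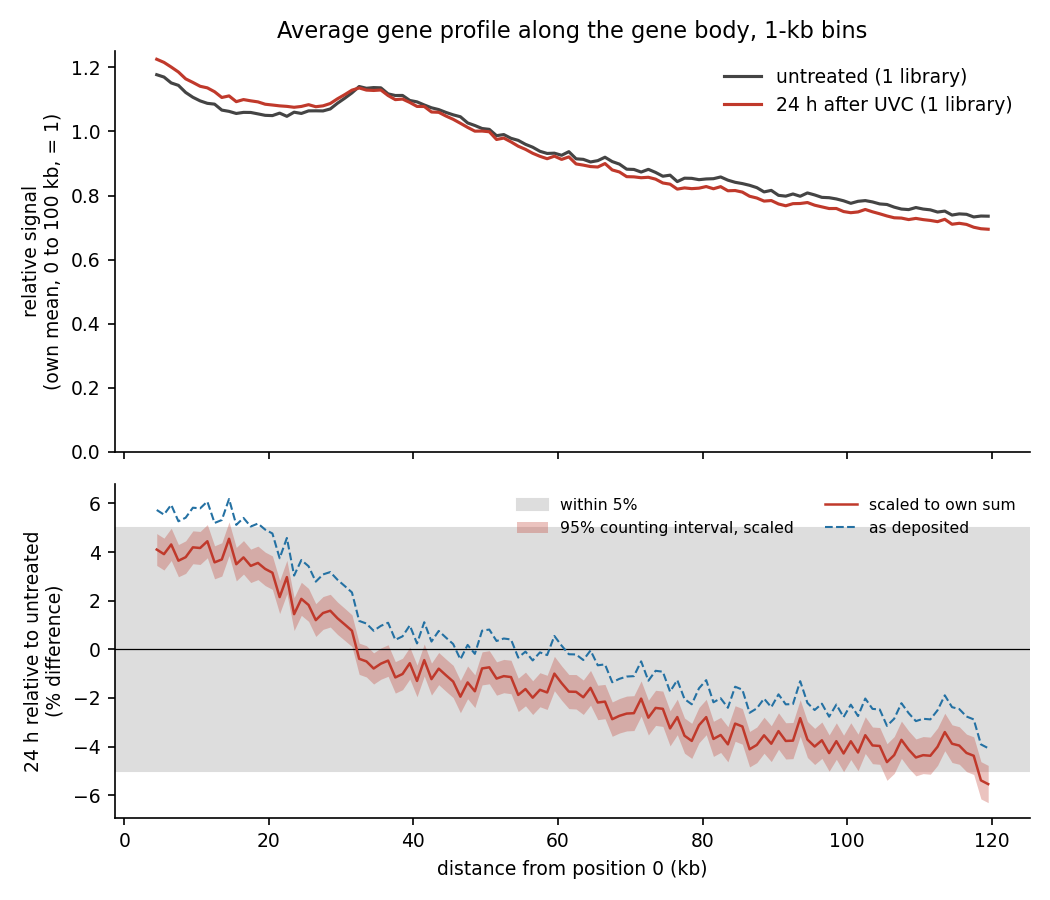
Relative signal (top, own mean from 0 to 100 kb = 1) and percent difference of 24 h from untreated (bottom) against distance from position 0 in kb, in 1-kb bins from 4 to 120 kb, with 1 library per condition; the band is the 95% counting interval of the scaled values and the grey area marks 5%. The scaled difference declines from about 4% at 4 to 20 kb through 0 at 32 kb to -5.55% in the last bin, and both profiles rise to a hump at 32 to 33 kb.

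Along the gene body the remaining difference was small and followed distance. In steps of 10 kb the difference of the scaled profiles was 3.80% from 10 to 20 kb, 1.91% from 20 to 30 kb, -0.372% from 30 to 40 kb, -1.20% from 40 to 50 kb and -1.41% from 50 to 60 kb. Farther in it was -2.10% from 60 to 70 kb, -2.88% from 70 to 80 kb, -3.56% from 80 to 90 kb and -3.75% from 90 to 100 kb. It went lower at each step. The scaled ratio was above 1 in all 28 bins from 4 to 32 kb and below 1 in all 88 bins from 32 to 120 kb. As deposited it was above 1 from 4 to 46 kb, changed sides between 46 and 61 kb, and was below 1 in the 59 bins beyond.

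The highest 1-kb bin from 4 to 100 kb was that from 14 to 15 kb, with a relative signal of 1.06 in untreated cells and 1.11 at 24 h (4.54%, 3.86% to 5.24%). The lowest was that from 99 to 100 kb, with 0.783 and 0.750 (-4.29%, -5.03% to -3.53%). Beyond 100 kb the bins ran from -3.41% (113 to 114 kb) to -5.55% (119 to 120 kb, -6.31% to -4.78%), and the 2 bins more than 5% lower were the last of the profile, from 118 to 120 kb. The longest stretch within 5% was the 114 bins from 4 to 118 kb. As deposited, the 15 bins from 4 to 19 kb were more than 5% higher and the 101 bins from 19 to 120 kb were within 5%.

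A straight line through the log2 scaled ratio from 4 to 100 kb fell by 0.013 per 10 kb (SE 0.00044 over 96 bins, which share genes and are not replicates). It was steeper from 4 to 30 kb (-0.018, SE 0.0019, 26 bins) than from 30 to 100 kb (-0.0087, SE 0.00038, 70 bins). Neighbouring 1-kb bins scattered by 0.371%, against a mean counting standard error of 0.366%. The decline over the body was thus many times the scatter between neighbours, with no measure of the spread between cultures.

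The decline of signal with distance was correspondingly a little steeper at 24 h. A log-linear fit from 10 to 100 kb (90 bins) gave a change in signal of -4.16% per 10 kb in untreated cells and -5.01% at 24 h. At 12 h it was -8.52% and at 2 h -9.45%. The distances over which signal would halve in these fits were 163 kb in untreated cells, 135 kb at 24 h and 77.8 kb at 12 h. Both profiles depart from a straight line below 40 kb (r squared 0.88 in untreated cells and 0.94 at 24 h), and from 30 kb on the distances were 122 kb and 110.3 kb. In that later fit the untreated profile changed by -5.52% per 10 kb, with -6.09% (24 h), -8.74% (12 h) and -6.42% (2 h) after UVC, so that 2 h lay close to 24 h and not beyond 12 h as in the longer fit.

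A hump in the gene body had returned at 24 h but stood less far above its floor. In untreated cells the signal was at a floor between 20 and 25 kb (relative signal 1.05) and rose to 1.14 from 32 to 33 kb, which was the highest 1-kb bin between 25 and 45 kb. The hump stood 8.18% above the floor (7.60% to 8.77%). At 24 h the floor was at 1.08 and the same bin was again the highest, at 1.14, which is 5.28% above the floor (4.80% to 5.77%). In the 5 earlier libraries that bin lay below the floor. It differed from the floor by -15.1% (2 h), -8.39% (5 h), -4.66% (8 h), -3.02% (10 h) and -2.36% (12 h), and the highest bin of the range was its edge at 25 kb. The hump bin lies where the scaled ratio passed from above to below 1, and its floor lies before that point, where the ratio was above 1. At 24 h the relative signal of the hump bin was back (1.14 in both) while the floor before it was raised. As deposited, the signal of the hump bin was 1.17% higher at 24 h. Which genes give the hump cannot be seen in an average profile.

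**Figure D3:**
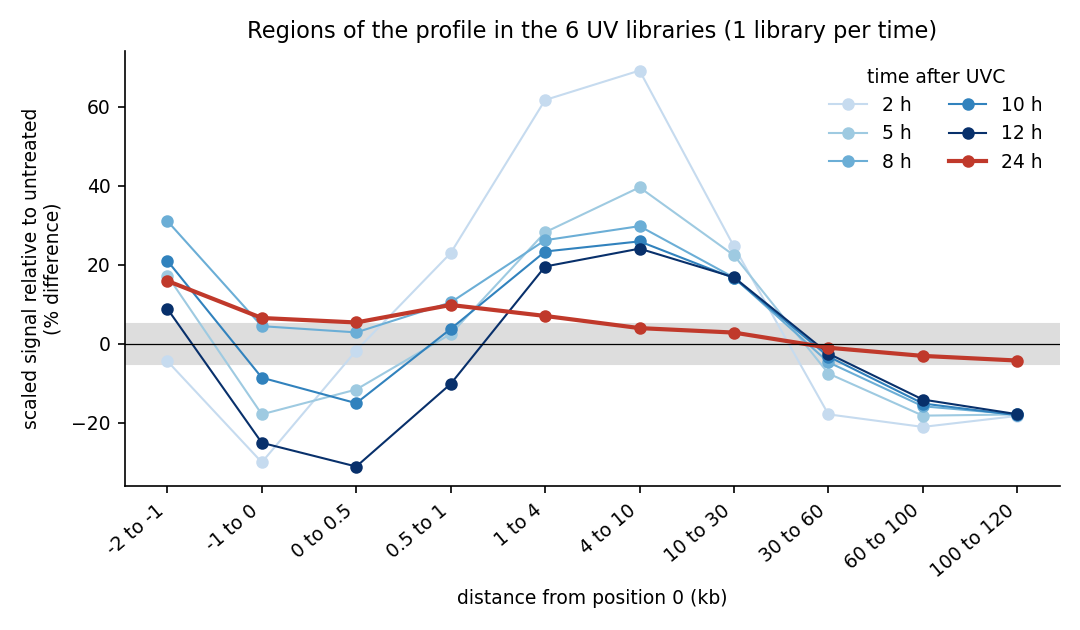
Percent difference of scaled signal from untreated in 10 regions of the profile (distance from position 0 in kb) for the 6 UV libraries, with 1 library per time and the grey area marking 5%. At 24 h the points lie between -4.21% and 15.9%, while the 12 h points run from -31.0% to 24.1%; all are set against the same untreated library.

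Set beside the 12 h library, all regions of the body beyond 4 kb lay nearer to untreated. From 4 to 10 kb the difference from untreated was 24.1% at 12 h and 3.99% at 24 h. From 10 to 30 kb it was 16.8% and 2.86%, from 60 to 100 kb -14.1% and -3.04%, and from 100 to 120 kb -17.8% and -4.21%. From 30 to 60 kb it was already small, -2.45% at 12 h and -0.967% at 24 h. From 100 to 120 kb the scaled difference lay between -18.2% and -17.8% in all 5 libraries from 2 to 12 h. As deposited it was -28.7% (2 h), -24.8% (5 h), -22.7% (8 h), -19.9% (10 h), -17.1% (12 h) and -2.72% (24 h) there. On the scaled values every region from 1 to 120 kb was thus nearer to untreated at 24 h than in any earlier library.

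The regions around the start had no such order, and the 2 next to position 0 were far below untreated at 12 h. From 0.5 to 1 kb the difference of 9.85% at 24 h was about as large as the 10.5% at 8 h and the -10.1% at 12 h, larger than the 2.50% at 5 h and the 3.79% at 10 h, and smaller than the 23.0% at 2 h. From 0 to 0.5 kb it was 5.42% at 24 h, with values between -31.0% and 2.91% before. From -1 to 0 kb it was 6.55% at 24 h, against 4.48% at 8 h and -25.0% at 12 h. On the scaled values all 4 regions from -2 to 1 kb lay above untreated at 24 h, which held in the 8 h library too and in none of the others. As deposited it held at 24 h only, and 8 h had -1.68% from -1 to 0 kb and -3.16% from 0 to 0.5 kb.

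Counted in bins, the same contrast was seen. Of the 120 50-bp bins, 96 were more than 5% apart from untreated at 24 h, against 109 (2 h), 105 (8 h) and 108 (12 h). Of the 116 1-kb bins 2 were apart at 24 h, against 112 (2 h), 99 (8 h) and 98 (12 h). Around the start the size of the difference changed more than the number of bins, with a median of 22.0% at 12 h and of 8.78% at 24 h. No replicate library shows how far 2 libraries of the same condition lie apart. For scale, the series has neighbours that differ by 2 h of incubation. Between 10 and 12 h, the pair with the smallest shape distance of all, 68 of the 50-bp bins were more than 5% apart (56.7%), all lower at 12 h, and 0 of the 1-kb bins, with median differences of 7.85% and 0.903%. Between 8 and 10 h the numbers were 55 (45.8%, all lower at 10 h) and 0, with medians of 4.25% and 1.04%. These pairs reached differences of 22.3% and 20.8% in single 50-bp bins, against 18.5% for 24 h and untreated, and of 2.49% and 3.29% in single 1-kb bins, against 5.55%. On this scale it was the gene body, not the region around the start, where 24 h and untreated differed by more than both pairs in median and in largest bin.

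As a summary of the shape, the share of signal that would have to be moved to turn the 24 h profile into the untreated one, in 1-kb bins from 0 to 100 kb, was 1.36% (counting SE 0.017). Counting error alone would give 0.139% on average. Among all 21 pairs of libraries this was the third smallest distance, after 12 h and 10 h (0.695%) and 10 h and 8 h (0.858%). The distance of 24 h to 12 h was 5.15%, and that of 12 h to untreated 6.29%.

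**Figure D4:**
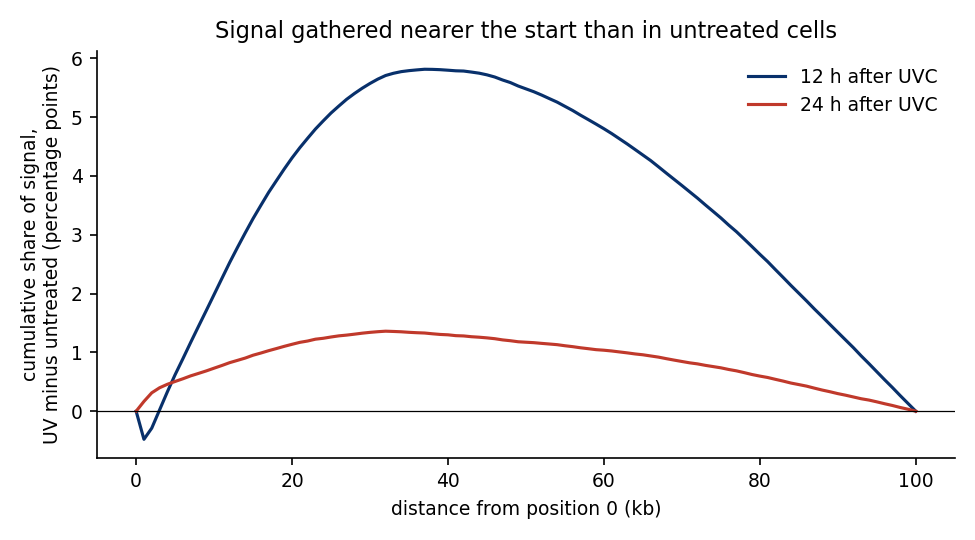
Cumulative share of the signal from 0 to 100 kb, UV minus untreated in percentage points, against distance from position 0 in kb, for 12 h and 24 h (1 library each). The 24 h curve stays above 0 and reaches 1.36 points at 32 kb, while the 12 h curve starts below 0 and reaches 5.81 points at 36.9 kb.

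The whole of this remaining shift ran from far to near positions. The cumulative shares lay farthest apart at 32 kb, below which 36.7% of the untreated signal and 38.1% of the 24 h signal was found, a difference of 1.36 percentage points. The gain was spread over the near regions: 0.065 points from 0 to 0.5 kb, 0.10 points from 0.5 to 1 kb, 0.29 points from 1 to 4 kb, 0.27 points from 4 to 10 kb and 0.61 points from 10 to 30 kb. The corresponding loss was -0.30 points from 30 to 60 kb and -1.04 points from 60 to 100 kb. In percent the excess was thus highest within the first 4 kb, but in share of signal most of it lay from 4 to 30 kb, since these regions hold far more of the profile. At 12 h the cumulative difference had reached 5.81 points at 36.9 kb.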

How the data were processed

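The deposited unit is signal: per the file headers each file holds a position and a value of 1 library, and the values are linear averages over genes made by the authors. BWA 0.5.9 and the builds hg19 and GRCh37 are listed in the submitters' processing notes. The genes averaged, the strand handling and the factor that scaled each library are not given in the sources used here. All values of a library were whole multiples of a step (tolerance 0.05 of it), and the read extension was the lag of the lowest autocorrelation of successive differences (lags up to 399 bases). Signal divided by step and extension gave reads; counting intervals (95%) treat these as Poisson and allow for reads shared within a bin. They do not recognise PCR duplicates.

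The members, bins, regions and measures were chosen with earlier results of these data known; the 5% line is a convention. Bins named are the highest and lowest of each zone, the bounds of runs of at least 4 (50-bp) or 3 (1-kb) bins, and landmarks of the start. The hump near 32 kb, the flat step behind the peak (350 to 700 bp) and the line through the ratio were added after seeing the profiles. Python 3.11.15 with numpy 2.4.6 was used, and the code was tested on simulated data. The reference genome was not used.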

Additional observations from a re-analysis of the deposited data

How the results depend on the processing

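The count of 50-bp bins more than 5% apart (96) was 33 of 120 when 10% counted as apart, and 48 of 60 in bins of 100 bp; under the other 6 alternatives it lay between 96 and 110. The count of 1-kb bins (2, both lower) depended more on the choices. It was 59 (17 higher, 42 lower) when 3% counted as apart, 0 with 10%, 15 (all higher) on the values as deposited, 48 (10 higher, 38 lower) after subtracting 1 unit of signal from both profiles before scaling, and 1 of 58 in bins of 2 kb. With medians, or scaled to the sum from 1 to 100 kb or to the whole profile, it stayed at 2. The shape distance (1.36%) was 1.28% without the first kilobase and 1.88% after subtracting 1 unit. The ratio from -2 to -1 kb, where signal is low, rose from 1.16 to 1.29 after that subtraction. Scaling to the farthest upstream kilobase, itself 15.9% higher at 24 h (and set to a ratio of 1 by this scaling, so no value is given for it), put the ratio below 1 in 6 regions that otherwise lay above it: 0.919 from -1 to 0 kb, 0.909 from 0 to 0.5 kb, 0.947 from 0.5 to 1 kb, 0.924 from 1 to 4 kb, 0.897 from 4 to 10 kb and 0.887 from 10 to 30 kb. This follows from dividing every region by that excess. From 30 to 60 kb the ratio of 0.990 became 1.006 as deposited. The other 52 of 59 region values kept their side of 1, but 35 of the 59 moved outside the counting interval of the main ratio and 17 stayed inside it. Scaling to the sum from 1 to 100 kb or to the whole profile changes all ratios by the same small factor. A change of side was hardly possible there. No paired analysis was possible because a pair of single libraries carries no replicate numbers to match. No replicate could be left out for the same reason, and the spread between cultures is not measured. Depth limits the bins whose counting interval holds a ratio of 1.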
